A study of Mus musculus with 15 samples.

Results

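The genes described here are 8 transcription factors of neural lineages: Atoh1, Neurog1, Neurog2, Neurod1, Barhl1, Sox2, Pax6 and Olig2. They were chosen by name, and each was required to have a probe set paired with exactly 1 gene symbol. All 8 met this requirement, each with 1 such probe set, out of 22180 genes measured in the same way. Their RNA was measured on single-channel Affymetrix arrays in 15 mouse tissue samples, described as taken from different mice, all of the choroid plexus, the tissue that secretes cerebrospinal fluid: 5 were normal, 5 were papillomas and 5 were carcinomas. The papillomas came from mice of genotype Atoh1-Cre; Myc/Myc, and the carcinomas from mice of genotype Atoh1-Cre; Myc/Myc; p53fl/fl. Normal tissue came from mice of genotype Myc/Myc; p53fl/fl, which carry no Cre. All groups therefore share the Myc alleles and a mixed C57Bl/6 and 129 background, and the papillomas alone lack the floxed p53 allele. Tumours were collected when mice showed signs of disease, and the ages are not given in the sources used here. Cre in these mice is under control of Atoh1 regulatory sequence, so the allele changes are made in cells in which that sequence is or was active. The question asked of these genes is whether the transcripts of Atoh1 and of other neural lineage factors differ between normal plexus and either tumour, and between the tumours.

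Atoh1 is the proneural factor of the rhombic lip, the strip of dorsal hindbrain that borders the roof plate, from which the hindbrain choroid plexus forms. It is of the basic helix-loop-helix (bHLH) class. These proteins pair with E-proteins such as Tcf3, Tcf4 and Tcf12, bind short DNA sites called E-boxes and start neuronal differentiation. Id proteins and Hes and Hey repressors oppose them. Rhombic lip cells that have used Atoh1 give rise to cerebellar granule neurons, which then use Neurod1, Pax6 and Barhl1.

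The values are log2 probe set signals after RMA, so a difference of 1 is a 2-fold difference. The choroid plexus label was borne out by its markers: the 8 measured of 10 listed epithelial genes, among them Ttr and Kl, had a mean of 12.58 to 13.22 in every array, against an array median of 6.79 to 6.90. Markers of other tissue also gave signal. In papilloma arrays 2 and 4, 4 of the 6 cerebellar granule neuron markers and 3 of the 10 neuron markers (Slc17a7 is in both lists) exceeded every other array, as did 362 of all 22180 genes (1.63%). Gabra6, a GABA receptor subunit typical of granule neurons, was at 10.18 and 9.13 in these arrays and at 4.98 to 7.09 in the other 13. Whether these transcripts came from other tissue or from tumour cells was not tested. Results of the 8 factors that rest on these papillomas are therefore given with and without them, a choice made after seeing the data. For the other neural lineage genes described below, this holds only for the counts over all lists together and for papilloma differences of En2, Etv1 and Mab21l1. The counts of each single list come from the fit with all arrays. The 4 pituitary markers had a mean of 7.42 to 8.79 in normal tissue and 5.94 to 6.90 in tumours, and all 4 were lower in both tumours. The 7 measured markers of multiciliated cells were all lower in both tumours, with a mean of 9.92 to 10.10 in normal tissue, 6.69 to 6.88 in papillomas and 6.82 to 7.92 in carcinomas. Of the 6 fibroblast and meninges markers 4 were lower in carcinoma and 6 in papilloma, with a mean of 9.74 to 9.89 in normal tissue, 7.58 to 8.10 in papillomas and 8.01 to 8.50 in carcinomas. Normal arrays 2 to 5 held both the female transcript Xist (10.69 to 12.48) and Y-linked transcripts (mean of 3 genes, 7.72 to 9.74). A single mouse is not normally high in both, so these normal samples may not each be the tissue of 1 animal, and the normal SD and n = 5 are to be read with that limit.

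The sequences shown here are those before the starts of Atoh1, which names the Cre driver, and Barhl1, a gene that Atoh1 is known to act on. Only the 250 bases before each start were searched, so E-boxes farther away are not covered. Whether these bases drive Atoh1 or the Cre was not tested. Each sequence is from RefSeq (GRCm38.p6) and reads 5′ to 3′ on the gene's own strand. Capitals mark an E-box, CANNTG on either strand, which reads the same on both. The 250 bases before the Atoh1 start (chr6:64728875-64729124, plus strand) hold none, and the Barhl1 sites are shown within 28 bases, the E-box of start 1 beginning 99 bases and that of start 2 beginning 15 bases before the start (chr2:28916752-28916779 and chr2:28912496-28912523, minus strand).
Atoh1, before the start: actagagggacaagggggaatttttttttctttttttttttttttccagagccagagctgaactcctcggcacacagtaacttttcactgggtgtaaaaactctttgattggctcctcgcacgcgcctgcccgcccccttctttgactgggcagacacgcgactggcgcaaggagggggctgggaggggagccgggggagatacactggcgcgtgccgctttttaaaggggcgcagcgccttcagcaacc
Barhl1, site before start 1: ggccacgcagccCAGCTGgccctcctcc
Barhl1, site before start 2: atcacctcacattCAGCTGaaccctgtc

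Both Barhl1 windows carried the form CAGCTG, which was present in 13.0% of 32851 windows of 250 bases before RefSeq starts. Any E-box was present in 66.2% of those windows and in 4 of the 10 windows of the 8 genes. The form CAGATG, searched on both strands, was present in 14.4% of all windows and in 0 of these 10. The remaining E-boxes lay before Neurod1 and before start 2 of Pax6. The Barhl1 gene span in RefSeq reaches beyond both of its listed starts, so these windows lie within the gene.

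The differences of the 8 factors were small. In carcinoma against normal tissue, limma called 2 of the 8 (Olig2 and Barhl1, both lower) at an adjusted p below 0.05, where it called 37.9% of all genes (18.7% higher, 19.2% lower). In papilloma against normal tissue it called 0 of 8, against 33.2% of all genes (17.0% higher, 16.3% lower), although Olig2 had an unadjusted p of 0.0395. Without papilloma arrays 2 and 4 it called 2 of 8 there, Pax6 and Olig2, both lower, against 30.3% of all genes in that fit. Those arrays were the 2 highest of the 15 for Pax6, so leaving them out had to lower its papilloma mean. In carcinoma against papilloma limma called 1 of 8 (Neurog2, lower in carcinoma), against 11.4% of all genes (6.24% higher, 5.17% lower). Groups without overlap were seen for 3 of the 8 in carcinoma against normal (Sox2 higher, Pax6 and Barhl1 lower), against 29.9% of all genes (14.6% higher, 15.2% lower). They were seen for 0 of 8 in papilloma against normal, against 32.1% (16.3% higher, 15.8% lower), and for 1 of 8, Neurog2, in carcinoma against papilloma, against 7.90% (4.52% higher, 3.39% lower). Without papilloma arrays 2 and 4, 3 of 8 were called in carcinoma against normal (Pax6, Olig2 and Barhl1, lower), against 38.0% of all genes, and 0 of 8 in carcinoma against papilloma, against 7.16%. The largest difference of any of these genes was 0.41 in carcinoma against normal, 0.30 in papilloma against normal and 0.44 in carcinoma against papilloma, and 30.0%, 34.7% and 11.1% of all genes differed by more. The 95% intervals of all 24 differences ended short of a 2-fold change, the farthest bounds being 0.80, 0.71 and 0.83. The median difference over the 8 was -0.08, 0.02 and -0.13 in the same order, and that over all genes was -0.02, 0.01 and -0.03. In whole tissue, fewer cells of a type and less RNA per cell cannot be told apart.

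**Figure D1:**
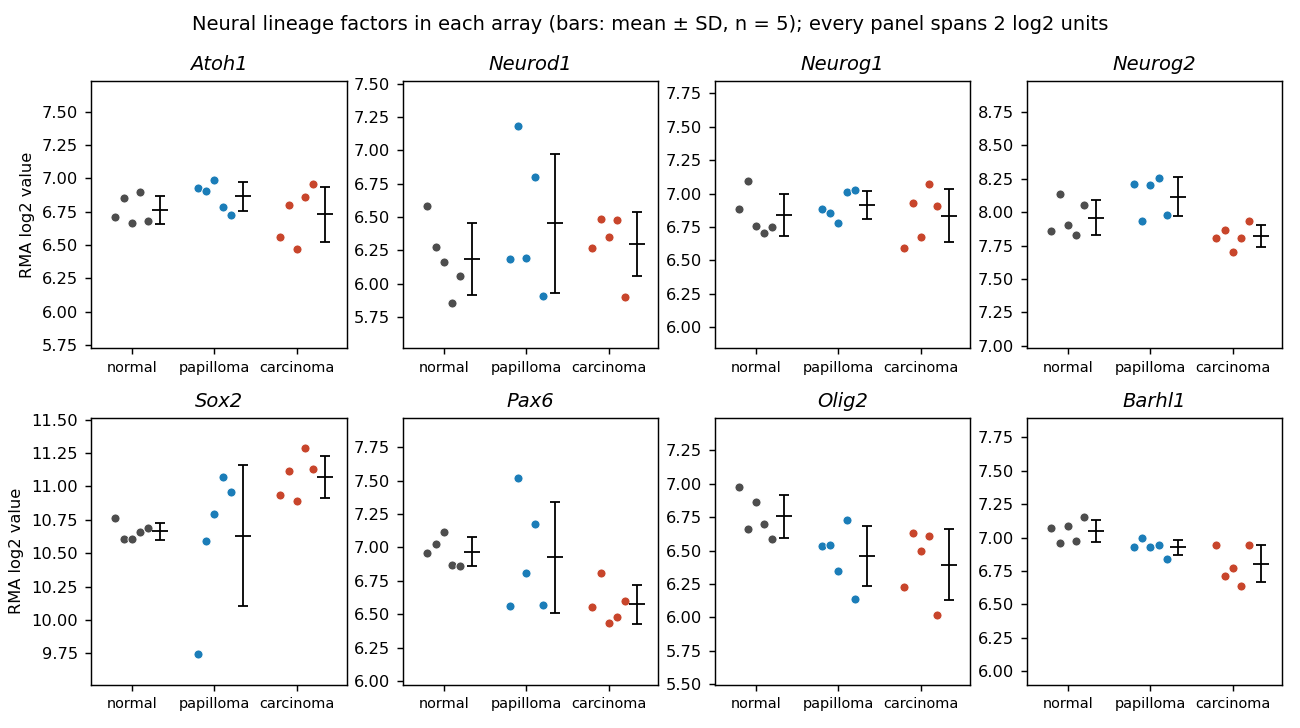
RMA log2 values of the 8 lineage factors (vertical axis) in the 5 normal, 5 papilloma and 5 carcinoma arrays, drawn in replicate order 1 to 5; the black bars give the group mean ± SD, and each panel spans 2 log2 units. Sox2 lay between 9.74 and 11.28 and the other 7 genes between 5.86 and 8.26, and the widest groups were the papillomas for Neurod1, Sox2 and Pax6.

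Among the proneural factors, Atoh1 (probe set 17459153; gene at chr6:64729125-64731245, RefSeq GRCm38.p6, as for the genes that follow) measured 6.71, 6.85, 6.67, 6.90 and 6.68 in normal arrays 1 to 5. It measured 6.93, 6.90, 6.98, 6.78 and 6.72 in the papillomas and 6.56, 6.80, 6.47, 6.86 and 6.96 in the carcinomas. The 3 groups overlapped, and the carcinomas held both the lowest value and one of the highest. The group means were 6.76 ± 0.11, 6.87 ± 0.11 and 6.73 ± 0.21 (SD, n = 5 each). Carcinoma differed from normal tissue by -0.03 (95% interval -0.23 to 0.17), papilloma from normal by 0.10 (-0.10 to 0.31) and carcinoma from papilloma by -0.13 (-0.34 to 0.07). The limma adjusted p values of these differences were 0.845, 0.473 and 0.428. The sign of the carcinoma difference turned to 0.0088 under quantile normalization and to 0.0060 at a common median.

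The signal of Atoh1 lay at the low part of the scale. The 1394 olfactory and vomeronasal receptor genes, which brain and plexus tissue do not as a rule use, had a 95th percentile of 6.56 to 6.76 per array. Atoh1 exceeded that percentile in 12 of 15 arrays and the array median in 6 of 15. Probe sets differ in how strongly they bind, so this places the signal on the scale and does not measure the amount of transcript.

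Neurog1 and Neurog2 start neurogenesis in the dorsal neural tube, cortex and sensory ganglia. Their genes lie at chr13:56250478-56252180 (probe set 17293002) and chr3:127632733-127635636 (probe set 17402513). Neurog1 ranged from 6.71 to 7.09 in normal tissue, from 6.78 to 7.03 in papilloma and from 6.59 to 7.07 in carcinoma, and its largest difference was -0.08 (carcinoma minus papilloma, adjusted p = 0.699, limma). Neurog2 measured 7.86, 8.14, 7.91, 7.83 and 8.05 in normal arrays 1 to 5, and 8.21, 7.94, 8.20, 8.26 and 7.98 in the papillomas. The carcinomas measured 7.81, 7.87, 7.70, 7.81 and 7.93. Every carcinoma lay below every papilloma, by a gap as small as that between 7.93 and 7.94, while normal tissue overlapped both.  Neurog2 was lower in carcinoma than in papilloma by 0.30 on the log2 scale, or 1.23-fold (7.82 ± 0.09 against 8.12 ± 0.15, SE 0.08, limma adjusted p = 0.0331). The adjusted p over 25 alternatives ran from 0.0206 to 0.0828, and 9 of them ended the call. Those were the replicate block (adjusted p = 0.0802), a fit of only these groups (0.0727), all probe sets tested together (0.0587), leaving out papilloma arrays 2 and 4 together (0.0666), and leaving out carcinoma array 1 or 3 or papilloma array 1, 3 or 4 (0.0636 to 0.0828). Neither tumour was called different from normal tissue, with Neurog2 differing by 0.16 in papilloma (adjusted p = 0.177) and by -0.14 in carcinoma (adjusted p = 0.235).

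Neurod1, which acts after the neurogenins and Atoh1 and is used by granule neurons (probe set 17372351; chr2:79452637-79456636), measured 6.58, 6.27, 6.17, 5.86 and 6.06 in normal arrays 1 to 5. It measured 6.19, 7.18, 6.19, 6.80 and 5.91 in the papillomas and 6.27, 6.49, 6.35, 6.48 and 5.90 in the carcinomas. Papilloma arrays 2 and 4 were the highest of the 15, and all other arrays lay at 6.58 or below. The papilloma mean was 6.45 ± 0.52 (SD, n = 5), and 6.10 ± 0.16 (n = 3) without those arrays. The difference of papilloma from normal tissue accordingly went from 0.27 (limma adjusted p = 0.39) to -0.09 (adjusted p = 0.75), and neither passed the threshold. Over its 24 alternatives the adjusted p ran from 0.162 to 0.779. Neurod1 exceeded the 95th percentile of the receptor genes in 2 of 15 arrays, and these were the same papillomas.

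**Figure D2:**
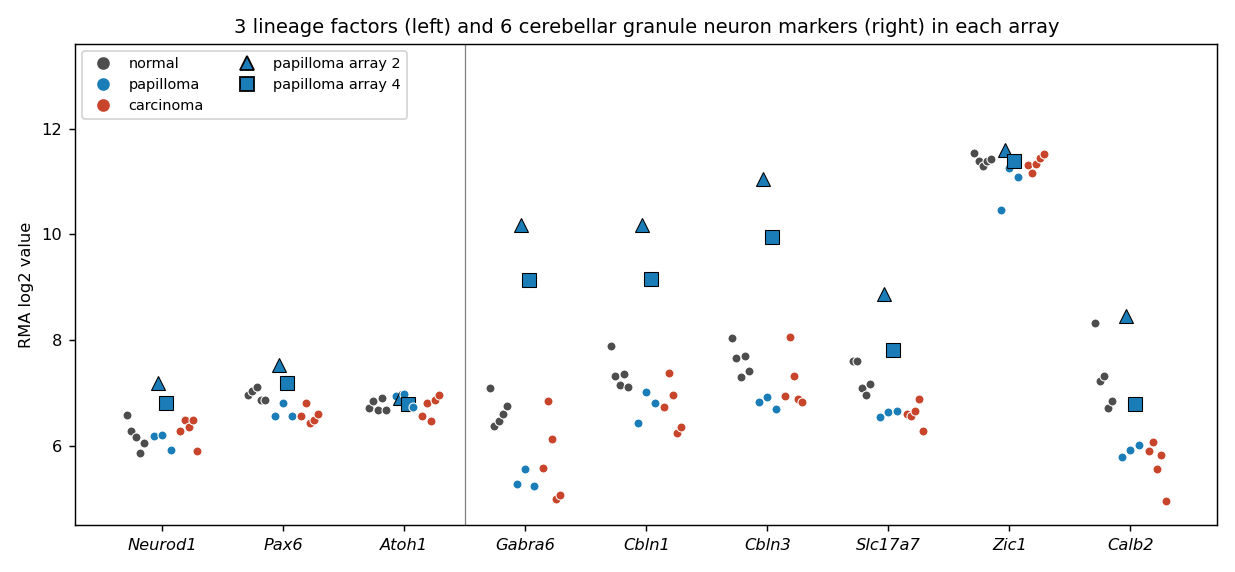
RMA log2 values (vertical axis) of Neurod1, Pax6 and Atoh1 and of 6 cerebellar granule neuron markers in each array, coloured by group; the triangle and square are papilloma arrays 2 and 4. Both symbols lie above the other 13 arrays for Neurod1, Pax6, Gabra6, Cbln1, Cbln3 and Slc17a7. For Atoh1 both lie within the other arrays, and for Zic1 and Calb2 the square does.

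Of the 6 granule neuron markers, 4 were, like Neurod1 and Pax6, highest in these papillomas. Cbln1, a synaptic organiser secreted by granule neurons, was at 10.17 and 9.16 in papilloma arrays 2 and 4 and at 6.25 to 7.88 elsewhere. Its relative Cbln3 was at 11.04 and 9.95 against 6.69 to 8.06, and the vesicular glutamate transporter Slc17a7 at 8.87 and 7.81 against 6.27 to 7.61. Zic1, a zinc finger factor that the plexus itself expresses, was at 11.59 and 11.38 against 10.46 to 11.53. Calb2, the calcium-binding protein calretinin, was at 8.45 and 6.79 against 4.95 to 8.32, so array 4 lay inside the other arrays. The mean of the 6 granule neuron markers was 10.05 and 9.04 in these arrays, 6.89 to 7.22 in the other papillomas, 7.77 to 8.41 in normal tissue and 6.83 to 7.68 in carcinomas. Their part in the Neurod1 and Pax6 values was not tested. Atoh1, at 6.90 and 6.78, lay inside the range of the other arrays.

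Barhl1, a homeodomain factor that acts after Atoh1 in granule neuron precursors and the inner ear (probe set 17383441; chr2:28907680-28917984), measured 7.07, 6.96, 7.08, 6.97 and 7.15 in normal arrays 1 to 5. The papillomas measured 6.93, 6.99, 6.93, 6.94 and 6.84, and the carcinomas 6.95, 6.71, 6.77, 6.64 and 6.95. Every carcinoma lay below every normal array, while the papillomas overlapped both groups. Barhl1 fell by 0.24 on the log2 scale in carcinoma, or 1.18-fold (6.80 ± 0.14 against 7.05 ± 0.08, SE 0.07, limma adjusted p = 0.0138). This call held under all 25 alternatives run, with an adjusted p of 0.00679 to 0.0396. The papilloma mean stood between them at 6.93 ± 0.06, and neither of its differences passed the threshold (papilloma minus normal -0.12, adjusted p = 0.232; carcinoma minus papilloma -0.12, adjusted p = 0.336). Barhl1 exceeded the receptor percentile in 14 of 15 arrays. It exceeded the array median in 5 of 5 normal arrays, 5 of 5 papillomas and 2 of 5 carcinomas, so its signal was also low on the scale. The median SD between arrays over all genes was 0.12 in normal tissue and 0.19 in carcinoma.

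Sox2, the SoxB1 factor that keeps neural progenitors undifferentiated (probe set 17396878; chr3:34649995-34652461), was above the array median in 15 of 15 arrays. It measured 10.76, 10.61, 10.61, 10.66 and 10.69 in normal arrays 1 to 5 and 10.94, 11.11, 10.89, 11.28 and 11.13 in the carcinomas. The papillomas measured 9.74, 10.59, 10.79, 11.07 and 10.96. Every carcinoma lay above every normal array, and papilloma array 1 lay below all others. Sox2 was 11.07 ± 0.16 in carcinoma and 10.66 ± 0.06 in normal tissue, a difference of 0.41 (SE 0.19, 95% interval 0.01 to 0.80, 1.32-fold) that missed the threshold (limma adjusted p = 0.102). The model shares 1 spread over the groups, and the papilloma SD was 0.53. With normal and carcinoma arrays alone the same difference passed (adjusted p = 0.00275), as it did without papilloma array 1 (adjusted p = 0.00361), and the adjusted p over the 25 alternatives ran from 0.00275 to 0.185. Papilloma differed from normal tissue by -0.03 (adjusted p = 0.922) and carcinoma from papilloma by 0.44 (adjusted p = 0.152).

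Pax6, a paired box factor of radial glia, rhombic lip and granule neurons (probe set 17373943; chr2:105668896-105698410), measured 6.96, 7.03, 7.12, 6.87 and 6.86 in normal arrays 1 to 5. The papillomas measured 6.56, 7.52, 6.81, 7.18 and 6.57, and the carcinomas 6.55, 6.81, 6.43, 6.48 and 6.60. Every carcinoma lay below every normal array, and papilloma arrays 2 and 4 were the highest of the 15. Carcinoma differed from normal tissue by -0.39 (6.57 ± 0.15 against 6.97 ± 0.11, SE 0.15, 1.31-fold lower) and missed the threshold (limma adjusted p = 0.0557). It passed in 9 of 25 alternatives, among them the replicate block (adjusted p = 0.0392), the normal and carcinoma arrays alone (0.00414), the fit without papilloma arrays 2 and 4 (0.00276) and the fits without papilloma array 1, 2 or 5 or carcinoma array 2 (0.0130 to 0.0439). The range over all 25 was 0.00276 to 0.118. Papilloma differed from normal tissue by -0.04 (adjusted p = 0.886) with all arrays. Without papilloma arrays 2 and 4 it differed by -0.32 (adjusted p = 0.0293), with a papilloma mean of 6.65 ± 0.14 (n = 3). The range of that adjusted p over the alternatives was 0.0293 to 0.995. Carcinoma differed from papilloma by -0.35 (adjusted p = 0.168) with all arrays and by -0.073 (adjusted p = 0.759) without papilloma arrays 2 and 4, in a range of 0.0845 to 0.759. Pax6 exceeded the receptor percentile in 5 of 5 normal arrays, 3 of 5 papillomas and 1 of 5 carcinomas, so most carcinoma values lay at the low end of the scale.

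A further probe set is paired with both Elp4 and Pax6 and can be given to neither. It did not follow the single-symbol Pax6 probe set. It measured 9.89 to 10.14 in normal tissue, 10.19 to 10.38 in papillomas and 9.94 to 10.60 in carcinomas. Every papilloma lay above every normal array, the carcinomas overlapped both groups, and papilloma arrays 2 and 4, at 10.38 and 10.19, lay inside the range of the other 13.

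Olig2, the bHLH factor of motor neuron and oligodendrocyte progenitors (probe set 17327030; chr16:91225550-91228677), measured 6.97, 6.66, 6.86, 6.70 and 6.58 in normal arrays 1 to 5. The papillomas measured 6.54, 6.54, 6.35, 6.73 and 6.14, and the carcinomas 6.23, 6.63, 6.50, 6.61 and 6.02. Carcinomas and normal arrays overlapped, with carcinoma arrays 2 and 4 above the lowest normal array. Olig2 fell by 0.36 on the log2 scale in carcinoma, or 1.28-fold (6.39 ± 0.27 against 6.76 ± 0.16, SE 0.13, limma adjusted p = 0.0416). The call ended in 9 of 24 alternatives: quantile normalization (adjusted p = 0.0658), a common median (0.0630), all probe sets (0.0592), and the fits without normal array 1, 2, 3 or 4 or carcinoma array 1 or 5 (0.0516 to 0.111). The adjusted p over all 24 ran from 0.0122 to 0.111. Papilloma differed from normal tissue by -0.30 (adjusted p = 0.102). That difference passed with array quality weights (-0.31, adjusted p = 0.0266) and without papilloma arrays 2 and 4 (-0.42, adjusted p = 0.0482), in a range of 0.0266 to 0.249. The signal exceeded the receptor percentile in 4 of 15 arrays.

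**Figure D3:**
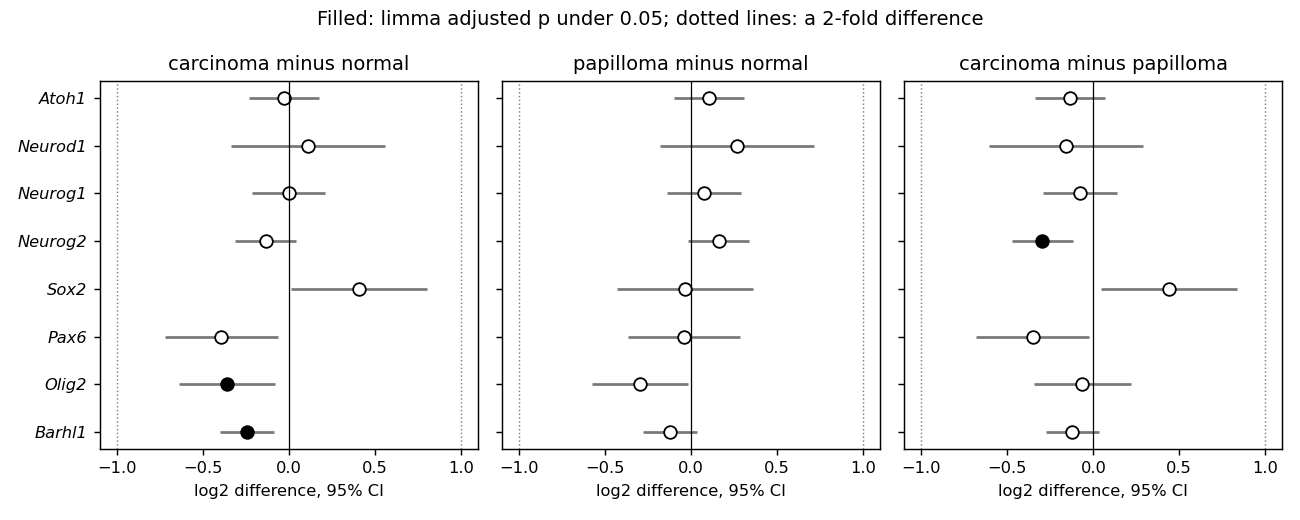
Log2 differences of the 8 lineage factors (horizontal axis) with 95% intervals from the limma model, in the 3 comparisons; filled circles have an adjusted p below 0.05 and the dotted lines mark a 2-fold difference. The filled circles are Olig2 and Barhl1 in carcinoma against normal and Neurog2 in carcinoma against papilloma, and no interval reaches a dotted line.

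The other papilloma differences without papilloma arrays 2 and 4 were as follows. Against normal tissue, papilloma differed by 0.12 for Atoh1, 0.06 for Neurog1, 0.17 for Neurog2, -0.17 for Sox2 and -0.15 for Barhl1. Carcinoma minus papilloma was -0.15 for Atoh1, -0.063 for Neurog1, 0.57 for Sox2 and -0.094 for Barhl1. For Neurod1 it went from -0.16 with all arrays to 0.20, and for Olig2 from -0.06 to 0.054. None of these differences passed the threshold in either fit (limma adjusted p of 0.119 or more without those arrays).

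Most called markers of neurons and oligodendrocytes moved in the same direction as Pax6, Olig2 and Barhl1. Of 10 neuron markers 6 fell and 0 rose in carcinoma against normal tissue, and their mean was 7.92 to 8.31 in normal arrays, 6.91 to 7.37 in carcinomas and 6.96 to 8.64 in papillomas. The neurofilament gene Nefl was lower in carcinoma, with a log2 difference of -1.78 (limma adjusted p = 0.000634). Of 10 measured oligodendrocyte lineage markers 7 fell and 1 rose in carcinoma, and 4 fell and 1 rose in papilloma. Their mean was 8.42 to 8.66 in normal arrays, 7.62 to 8.04 in carcinomas and 7.67 to 8.34 in papillomas. The list members Cspg4 and Pdgfra did not fall in carcinoma with Olig2. Cspg4 was at 7.89 to 8.09 in normal arrays and at 8.07 to 8.48 in carcinomas. Pdgfra was at 10.93 to 11.65 in normal arrays and at 10.53 to 12.23 in carcinomas. The myelin gene Mag fell by 1.09 in carcinoma on the log2 scale (adjusted p = 0.00185), and none of the defining markers was listed at 0, as RMA values do not reach it. Olig1, the partner gene of Olig2 in that lineage, differed by -0.29 in carcinoma (adjusted p = 0.11). The multiciliated, fibroblast and pituitary markers given above were also mostly lower in carcinoma. Other lists went differently there. Of 6 endothelium markers 3 rose and 0 fell, and of 8 astrocyte and radial glia markers 2 rose and 1 fell. Of 7 macrophage and microglia markers 1 rose and 0 fell. Of the 8 measured choroid plexus epithelium markers 0 rose and 4 fell, and of the 6 granule neuron markers 0 rose and 1 fell. Over all genes 18.7% were higher and 19.2% lower in carcinoma. The part of any of these tissues in the 3 factors was not tested.

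The other genes of these pathways were taken from 6 lists with 110 genes, of which 105 are reported here. In carcinoma against normal tissue 12 rose and 12 fell (22.9%), and in papilloma against normal tissue 12 rose and 12 fell (22.9%). In carcinoma against papilloma 8 were higher and 3 lower (10.5%). Without papilloma arrays 2 and 4 the called genes numbered 36 (34.3%), 37 (35.2%) and 7 (6.67%) in the same order. The shares over all genes were 37.9%, 33.2% and 11.4% with all arrays and 38.0%, 30.3% and 7.16% without those papillomas. The median difference of the 105 was -0.11, -0.01 and -0.07.

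Of 13 other bHLH lineage factors measured, 2 fell in carcinoma and 1 in papilloma, and 0 rose in either. The called shares were 15.4% and 7.69%, against 37.9% and 33.2% of all genes. Atoh8, a bHLH factor related to Atoh1 by sequence, measured 9.25 to 9.32 in normal tissue, 8.58 to 8.86 in papillomas and 8.49 to 8.84 in carcinomas. Both tumours lay below every normal array, and Atoh8 fell by 0.60 in carcinoma and 0.59 in papilloma on the log2 scale (limma adjusted p = 8.8e-06 and 1.26e-05). Neurod2, a neuronal differentiation factor, fell by 0.63 on the log2 scale in carcinoma (adjusted p = 0.0212), a call that 1 alternative ended (range 0.000295 to 0.0514). Atoh7, the retinal relative of Atoh1, differed by 0.0089 in carcinoma and 0.07 in papilloma (adjusted p = 0.949 and 0.546). The list median was -0.08 in carcinoma and -0.00015 in papilloma.

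Of 14 partners and inhibitors of bHLH factors, 2 rose and 4 fell in carcinoma, and 2 rose and 6 fell in papilloma. The called shares were 42.9% and 57.1%, against 37.9% and 33.2% of all genes. Tcf3, an E-protein partner, rose by 0.68 in carcinoma (adjusted p = 1.18e-05) and by 0.30 in papilloma (adjusted p = 0.0136, up to 0.0862 over the alternatives, of which 1 ended the call), and was higher in carcinoma than in papilloma by 0.38 (adjusted p = 0.0103). Hey2, a Notch-responsive repressor, measured 11.06 to 11.24 in normal tissue, 7.38 to 9.12 in papillomas and 9.12 to 11.77 in carcinomas. It fell by 2.52 on the log2 scale in papilloma, or 5.74-fold (adjusted p = 0.000108), and was higher in carcinoma than in papilloma by 1.97 (adjusted p = 0.00438). Hes6, which promotes neuronal differentiation, fell by 0.65 in carcinoma and 0.46 in papilloma on the log2 scale (adjusted p = 0.000103 and 0.00252). Hes1, which keeps progenitors undifferentiated, fell by 0.59 and 0.64 (adjusted p = 0.000487 and 0.000248). Id4 fell by 0.87 in papilloma on the log2 scale (adjusted p = 0.0012), and Hey1 rose by 0.74 in carcinoma (adjusted p = 0.00129).

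Of 11 other Sox factors, 4 rose and 1 fell in carcinoma, and 5 rose and 2 fell in papilloma. The called shares were 45.5% and 63.6%, against 37.9% and 33.2% of all genes. Sox4, a SoxC factor of progenitors and differentiating neurons, averaged 7.80 ± 0.12 over the normal arrays, 9.71 ± 0.10 over the papillomas and 9.82 ± 0.38 over the carcinomas (SD, n = 5 each). It rose by 2.02 in carcinoma, or 4.06-fold (SE 0.14, limma adjusted p = 1.62e-08), and by 1.91 in papilloma (adjusted p = 3.53e-08), and every tumour array exceeded every normal array. Sox12, of the same subgroup, rose by 1.06 in carcinoma and 0.87 in papilloma (adjusted p = 1.61e-06 and 1.75e-05), while Sox11, the other member and named after its values were seen, differed by -0.01 and 0.06 (adjusted p = 0.941 and 0.739). Sox5, a SoxD factor, fell by 1.23 in papilloma and 0.58 in carcinoma on the log2 scale (adjusted p = 1.12e-05 and 0.00646). Sox6, its relative, rose by 1.60 in papilloma (adjusted p = 0.000896). Its rise in carcinoma, 0.87 (adjusted p = 0.043), ended in 16 of 25 alternatives (range 0.000189 to 0.119).

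Of 27 regional homeodomain and paired box factors, 2 rose and 3 fell in carcinoma, and 1 rose and 1 fell in papilloma. The called shares were 18.5% and 7.41%, against 37.9% and 33.2% of all genes. Irx3 rose by 0.96 in carcinoma and 0.85 in papilloma (adjusted p = 2.08e-05 and 8.91e-05), and by 0.51 in each with the mean of its probe sets. Lhx2, a LIM homeodomain factor, rose by 0.51 in carcinoma (adjusted p = 0.0106) and was higher there than in papilloma by 0.65 (adjusted p = 0.00859). En2, a factor of the midbrain and cerebellum, fell by 1.16 in carcinoma on the log2 scale (adjusted p = 0.00227). Its fall of 0.77 in papilloma on the log2 scale (adjusted p = 0.0342) ended in 8 of 25 alternatives (range 4.04e-07 to 0.0965), and was -1.29 without papilloma arrays 2 and 4.

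Among 22 rhombic lip and granule neuron genes, 4 rose and 1 fell in carcinoma, and 4 rose and 2 fell in papilloma. The called shares were 22.7% and 27.3%, against 37.9% and 33.2% of all genes. Mab21l1, a developmental gene of the eye and neural tube, measured 6.41 to 7.16 in normal tissue, 7.24 to 10.33 in papillomas and 10.78 to 12.28 in carcinomas. The 3 groups did not overlap, and the papillomas spread over about 3 log2 units. It rose by 4.71 in carcinoma, or 26.3-fold (SE 0.47, limma adjusted p = 8.26e-07), and by 2.66 in papilloma (adjusted p = 0.000325), and was higher in carcinoma than in papilloma by 2.06 (adjusted p = 0.00991). Without papilloma arrays 2 and 4, Mab21l1 rose by 2.04 in papilloma and was higher in carcinoma than in papilloma by 2.67. Etv1, an ETS factor of granule neurons, measured 9.30 to 9.52 in normal tissue, 7.66 to 9.33 in papillomas and 6.60 to 7.42 in carcinomas. It fell by 2.45 in carcinoma on the log2 scale (adjusted p = 1.32e-06) and by 0.99 in papilloma (adjusted p = 0.00648). The papilloma difference was -1.48 without arrays 2 and 4 and -0.62 with the mean of its probe sets, and its adjusted p ran from 1.1e-05 to 0.0419. Nfib, a nuclear factor I gene, rose by 0.68 and 0.56 (adjusted p = 1.12e-05 and 0.000104). Of 19 neuronal commitment genes 2 fell in carcinoma (10.5%) and 1 in papilloma (5.26%), Hes6 in both, and 0 rose. The list median was -0.17 in carcinoma and -0.05 in papilloma. These counts come from the fit that shares 1 spread over all groups, papilloma arrays 2 and 4 included. Some genes not called had groups without overlap, such as Stmn2, at 7.05 to 8.05 in carcinomas and 8.53 to 9.44 in normal arrays. Stmn2 was at 10.75 and 9.58 in papilloma arrays 2 and 4 and at 7.16 to 7.52 in the other papillomas.

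**Figure D4:**
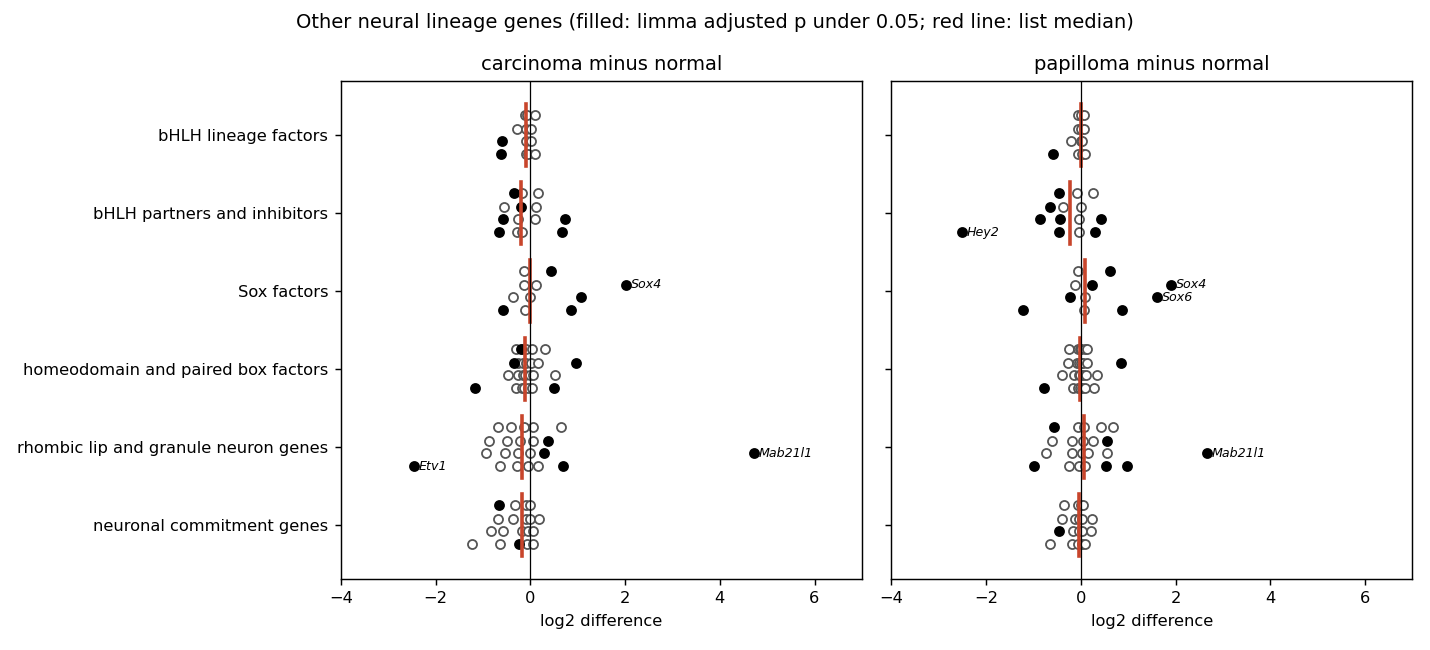
Log2 differences (horizontal axis) of the measured genes of 6 lists of other neural lineage genes in carcinoma and papilloma against normal tissue; filled circles have a limma adjusted p below 0.05, red lines are list medians, and genes beyond 1.5 in size are named. Most circles lie near 0, with Mab21l1 at 4.71 and 2.66 and Sox4 at 2.02 and 1.91 to the right and Hey2 at -2.52 in papilloma and Etv1 at -2.45 in carcinoma to the left.

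The genes whose values followed Atoh1 most closely over the 15 arrays, of 17248 compared, were Abca14, Actrt2 and Alpi (Pearson r = 0.85, 0.85 and 0.84). Their values ran from 5.70 to 6.71 over all arrays. Those most like Neurog2 were Ip6k3, Theg and Oog2 (r = 0.84, 0.84 and 0.83). These ran from 6.29 to 6.92, 5.56 to 6.16 and 5.49 to 6.58, where the receptor 95th percentile was 6.56 to 6.76 per array. The genes most like Olig2 were Prr18, Hps6 and Tcerg1l (r = 0.89, 0.87 and 0.87), and those most like Barhl1 were R3hdm2, Dynll2 and Ccdc149 (r = 0.90 each). The 3 genes like Barhl1 had their highest mean in normal tissue and their lowest in carcinoma, as Barhl1 did. R3hdm2, for example, had means of 11.02, 10.77 and 10.63 in normal tissue, papilloma and carcinoma. These correlations share the group means and the arrays, and they are the highest among very many, so they are given as a description.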

How the data were processed

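Total RNA of 15 samples was measured on 1 array each. The deposited values are log2 RMA summaries per probe set, made by the authors with Affymetrix Expression Console, per the submitters' processing notes. RMA subtracts background, forces the arrays to 1 distribution and compresses small changes of dim probe sets. No source used here gives the build of the probe annotation. Arrays have no read depth, and their number limits the precision.

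Of 41345 probe sets (190 controls), 23521 were paired with 1 symbol, 1814 with several and 16010 with none. Symbols were updated through RefSeq (GRCm38.p6; 23328 matched). The probe set with the highest mean stood for each of 22180 genes.

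A group model was fitted to all 15 arrays with limma 3.58.1 in R 4.3.3 (eBayes without trend, 12 residual and 3.35 prior degrees of freedom, two-sided p adjusted by Benjamini-Hochberg over 22180 genes, threshold 0.05), and was tested on simulated data. SEs and 95% intervals come from it. Other settings are listed in the closing section. Arrays of the same replicate number did not deviate together (correlations of -0.10 to 0.14 over 15 pairs, 2 above 0.1), so the main model has no block. The members and lists were chosen with earlier results of these data known. All 8 members were named. From each list up to 3 called genes per direction and comparison were eligible. Other named genes were markers of other tissue, chosen to stand beside a result. For Atoh1 and each called member the 3 most correlated genes were named, leaving out predicted and clone-named genes, small RNAs, chemosensory receptors and immunoglobulin segments. Atoh7, Olig1 and Stmn2, list members that were not called, were named after their values were seen.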

Additional observations from a re-analysis of the deposited data

Results flagged for a closer look

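Signal appeared in a probe set that the comparisons do not use. It is paired with both Neurod1 and Cerkl and so can be given to neither. It measured 10.38 in papilloma array 2 and 9.27 in papilloma array 4, against 7.42 to 7.84 in normal tissue and 6.64 to 7.84 over all 13 other arrays. These are the arrays in which the single-symbol Neurod1 probe set and the granule neuron markers were highest. The other shared probe set, of Elp4 and Pax6, is described with Pax6. In a check of the highest and lowest array of each of the 24 groups of 5 (8 genes in 3 groups), 0 stood apart. The check set the gap to the nearest array against the range of the group, with a critical ratio of 0.71. It can miss 2 arrays that are high together, as papilloma arrays 2 and 4 were for Neurod1 and Pax6.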

How the results depend on the processing

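Of the 3 member calls, that of Barhl1 held in all 25 alternatives and those of Olig2 and Neurog2 did not. In carcinoma against normal tissue 2 members were called, 4 with only the groups compared, and 1 under quantile normalization, a common median or all probe sets (1 to 4 without any 1 array). Of all genes, 8403 were called in the main fit and 8144 with only the groups compared. Quantile normalization called 8470 genes, a common median 8300 and the fit of all probe sets 11491 probe sets. In papilloma against normal tissue 0 members were called, 1 with array quality weights and 2 without papilloma arrays 2 and 4. Of all genes, 7374 were called there, 8972 with array quality weights and 6717 without those papillomas. List genes called went from 24 to 37 without them. In carcinoma against papilloma 1 member was called, and 0 with the replicate block, only the groups compared, all probe sets or without papilloma arrays 2 and 4 (0 to 1 without any 1 array). The replicate block called 2268 of all genes and the fit of all probe sets 2438 probe sets. In that comparison all genes called went from 2530 to 1329 with only the groups compared and 1587 without papilloma arrays 2 and 4, and list genes from 11 to 6 and 7. The cause was not tested, beyond the fewer arrays in these fits. The replicate block also moved Pax6 in carcinoma against normal past the threshold (adjusted p = 0.0392) and ended the Neurog2 call (0.0802).

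Signs turned for 7 uncalled differences. For carcinoma minus normal, Atoh1 (-0.03) was 0.0088 and 0.0060, and Neurog1 (-0.0026) 0.035 and 0.034, under quantile normalization and a common median (-0.088 to 0.034 and -0.062 to 0.061 without any 1 array). For papilloma minus normal, Sox2 (-0.03) was 0.039 with array weights and 0.011 at a common median (-0.14 to 0.19 without any 1 array), Pax6 (-0.04) 0.0048 at a common median (-0.19 to 0.051), and Neurod1 (0.27) was -0.091 without papilloma arrays 2 and 4. For carcinoma minus papilloma, without those arrays, Neurod1 (-0.16) was 0.20 (-0.29 to 0.024 without any 1 array) and Olig2 (-0.06) was 0.054 (-0.14 to 0.032). The filter on genes above the array median in at least 5 arrays left out Neurod1 and Olig2. The other alternatives were a variance trend with robust moderation and averaged probe sets. Signals near background limit Atoh1, Neurod1, Olig2 and Pax6. Barhl1, at 6.64 to 7.15, and Neurog1, at 6.59 to 7.09, also lay low on the scale, and the Barhl1 call is to be read with that limit.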
